A study of Mus musculus with 8 samples.

Results

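Rest and 9 genes of the corepressor complexes that its protein recruits were examined in mouse multipotent progenitors (MPPs) that carry the NUP98-HOXA10hd fusion (NA) and in wild-type (WT) MPPs. The 10 genes are Rest, Rcor1, Rcor2, Rcor3, Kdm1a, Hdac1, Hdac2, Sin3a, Sin3b and Hmg20b, out of 37980 gene rows in the deposited table. They were chosen by name, with the NA against WT differences of these libraries already known. Those differences are therefore given for them as a description and without a p-value. All 10 were above 0 and passed the low-value filter of the genome-wide test, under which 4 or more of the 8 libraries must reach 10 normalised counts.

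Each group had 4 libraries, made from aliquots of 1000 cells sorted as Lin- CD48- c-kit+ Sca1+ CD135+ CD150- from bone marrow of C57BL/6 mice. NA mice carry the fusion behind a stop cassette at the Rosa26 locus, and Vav-Cre, which acts in blood cells, switches it on. WT mice are labelled only as wild type, and the sources give neither the age of the donors of either group nor whether the WT mice carried Vav-Cre. The sources do not say whether the 4 aliquots of a group came from different animals, so the spread between them may be technical. All p-values and calls below take the aliquots as replicates, and may therefore describe aliquots rather than animals of a genotype.

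REST (RE1-silencing transcription factor) is a zinc finger repressor that binds the RE1 element and keeps neuronal genes silent outside the nervous system. Its N-terminal part recruits the SIN3 scaffold with the histone deacetylases HDAC1 and HDAC2. Its C-terminal part recruits CoREST (RCOR proteins), which holds the histone demethylase LSD1 (Kdm1a), the same deacetylases and the HMG-box subunit HMG20B. In blood cells the LSD1-CoREST complex also works with other DNA-binding repressors, among them GFI1 and GFI1B.

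Several facts of the whole series bear on these values. The estimated depth was 3876905 to 4916978 reads per library. Xist averaged 1104 normalised counts in WT and 1.92 in NA libraries, while the Y-linked Ddx3y averaged 515 in NA and 0.222 in WT, so donor sex, which the labels do not give, cannot be told apart from genotype. All 10 members lie on autosomes. Library 4 of each group lay closest to its own group: its correlation with the mean of the other 3 was 0.986 in NA and 0.991 in WT, against 0.954 to 0.971 for the other 6 libraries (Pearson r over 11431 genes). Results were therefore also computed without NA4 and WT4. Of 6 genes of the sort gate or of progenitors, Kit, Flt3 and Cd34 were above 1000 normalised counts in all 8 libraries and were not called, nor was the low Slamf1. The other 2 fell without overlap: Ly6a, which encodes Sca1, from 1548 ± 63.3 to 1277 ± 88.5 (SD, 4 libraries per group, limma adjusted p = 0.0257), and Cd48, a marker the gate excludes, from 56.1 ± 21.3 to 17.7 ± 5.36 normalised counts (SD, limma adjusted p = 0.00711). Of the defining markers of other cells, Ms4a1, Pax5, Cd3e, Cd3g, Cd3d, Cd8a, Trac, Elane and Ly6g were at 0 in every library. The summed level of 5 erythroid markers was 34.3 to 62.0 normalised counts in NA and 142 to 292 in WT libraries, and that of 6 granulocyte markers 11.3 to 28.6 and 32.8 to 285. Markers of other cells were not absent: 5 macrophage markers summed to 1703 to 1798 in NA and 1801 to 2064 in WT libraries, also without overlap. The sums were 101 to 228 and 181 to 263 for 5 B cell markers, 184 to 279 and 207 to 280 for 5 megakaryocyte markers, and 0.940 to 13.8 and 7.93 to 21.6 for 6 T cell markers, all of which overlapped. The part of these gate and marker levels in the differences given here was not tested. In pooled cells, fewer cells that express a gene and less RNA of it per cell cannot be told apart.

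The letters of 2 RE1 matches, both in tested genes of the REST target list, are shown first. A link between the level of Rest and these genes was not tested. The match searched for was AGCACC, a gap of any letters and GGACAG, on both strands, with a gap of 2 bases for the usual RE1 or 8 bases for the form with its parts set apart. The window ran from 250 bases before to 50 bases after each RefSeq transcription start site (build GRCm38.p6, the assembly behind the mm10 build that the labels name). Gria2, which encodes an AMPA-type glutamate receptor subunit, held the match with the 2-base gap on the strand opposite to the gene. It runs from position -170 to -157, with the start site as 0. The 250 bases before the start site are chr3:80802836-80803085, minus strand, with the match in capitals. Unc13a, which encodes a protein that primes synaptic vesicles for release, held the match with the 8-base gap, from position 8 to 27 of its first exon, in the 5′ untranslated part of the annotated transcript. The site lies in chr8:71671725-71671754, minus strand, again with the match in capitals.
Gria2: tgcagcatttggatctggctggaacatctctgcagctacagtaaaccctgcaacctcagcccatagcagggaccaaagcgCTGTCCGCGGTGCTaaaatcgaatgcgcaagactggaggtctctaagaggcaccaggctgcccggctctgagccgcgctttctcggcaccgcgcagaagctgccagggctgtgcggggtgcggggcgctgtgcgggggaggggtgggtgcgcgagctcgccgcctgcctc
Unc13a: aggcgCTGTCCGCGCCCCCGGTGCTgaagc

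Among 27025 genes with such a window, 16 (0.0592%) held the match with the 2-base gap and 7 (0.0259%) that with the 8-base gap. A match is a description of the letters and not evidence of binding. No member held either match among the 8 that have a window, and Rest and Hdac1 were not in the table of windows. Of the 44 REST target genes described below, 29 have a window. Among these, 1 (Gria2) held the match with the 2-base gap and 1 (Unc13a) that with the 8-base gap.

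The repressor itself came first. Rest (ENSMUSG00000029249, chr5:77265491-77286432, plus strand) was far higher in NA MPPs. Its normalised counts were 711, 812, 802 and 853 in NA libraries 1 to 4. They were 33.7, 106, 51.2 and 64.8 in WT libraries 1 to 4. The groups did not overlap, and the lowest NA library stood well clear of the highest WT library. The means were 795 ± 59.7 in NA and 64.1 ± 31.0 in WT (SD, 4 libraries per group), a ratio of 12.4. On the log2(normalised count + 1) scale the difference was 3.73 with a standard error of 0.251. Ordered from the most positive difference down, Rest was number 15 of 11451 genes tested, and number 9 of the 9000 whose mean over all libraries reached 50 normalised counts. Leaving out single libraries moved it between 3.47 and 4.01. Relative spread was unequal: the coefficient of variation of Rest was 7.51% in NA and 48.4% in WT libraries, the widest among the 10 genes in WT.

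**Figure D1:**
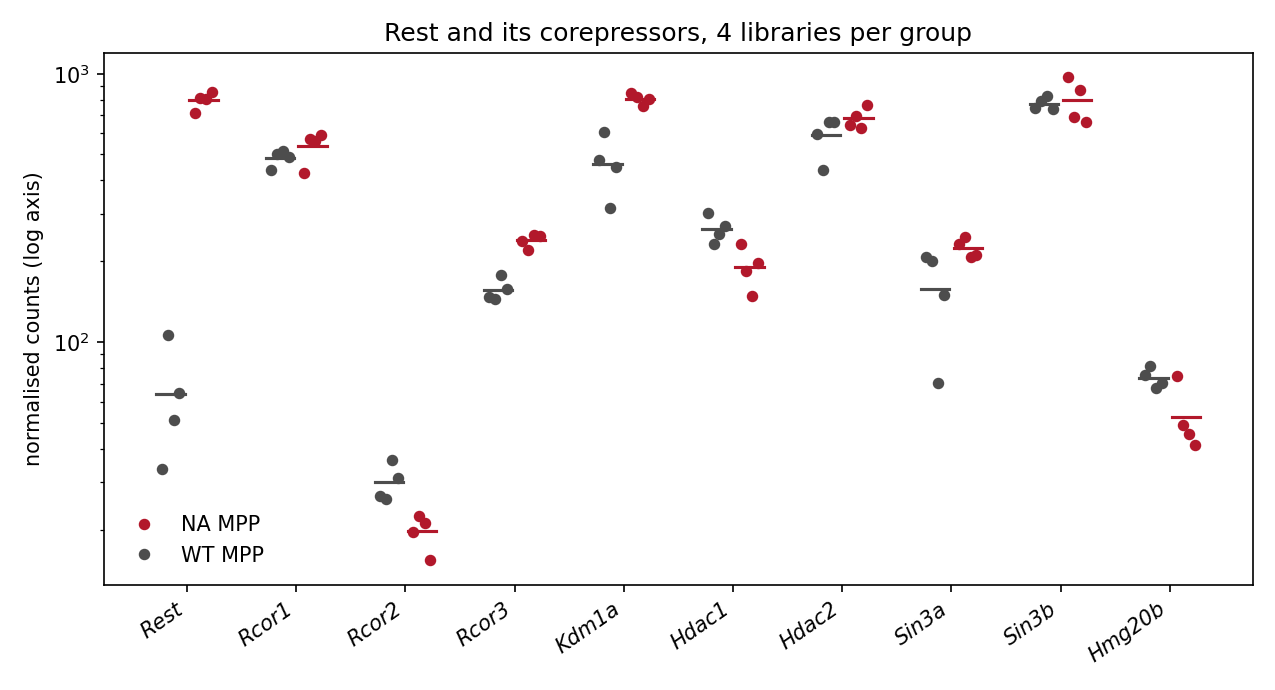
Normalised counts (log axis) of Rest and 9 corepressor genes in each of 4 WT MPP (grey) and 4 NA MPP (red) libraries; each point is a library, in the order 1 to 4, and each bar is a group mean. Rest sits between 711 and 853 in NA and between 33.7 and 106 in WT libraries, while the corepressors differ far less.

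The genes around Rest were looked at after its values had been seen, to show whether the difference was shared along the chromosome. On one side Noa1, a mitochondrial GTPase gene that starts 28.7 kb from the start of Rest, was at 188 ± 22.5 in NA and 192 ± 24.8 normalised counts in WT MPPs (SD, 4 libraries per group). Polr2b, which encodes a large subunit of RNA polymerase II, was at 311 ± 53.9 and 335 ± 46.0 (SD, 4 libraries per group). On the other side Srp72, a signal recognition particle gene, was at 799 ± 117 and 802 ± 129 (SD, 4 libraries per group). The limma adjusted p-values of these 3 genes were 0.903, 0.631 and 0.987, and those of Paics and Cenpc1 were 0.413 and 0.636. Relative to the start of Rest, Polr2b started at 44.7 kb, Srp72 at -291 kb, Paics at -314 kb and Ppat at -352 kb. Cenpc1 started at 8747 kb and so is not a close neighbour. Of the 6 tested neighbours 1, Ppat, passed, against 17.9% of all genes tested, so nothing is read from this count. Ppat encodes the first committed enzyme of purine synthesis and rose from 110.1 ± 17.3 to 215 ± 30.7 normalised counts (SD, 4 libraries per group), or 0.96 on the log2 scale (limma adjusted p = 0.00135). Its log2 fold change was thus far below that of Rest.

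**Figure D2:**
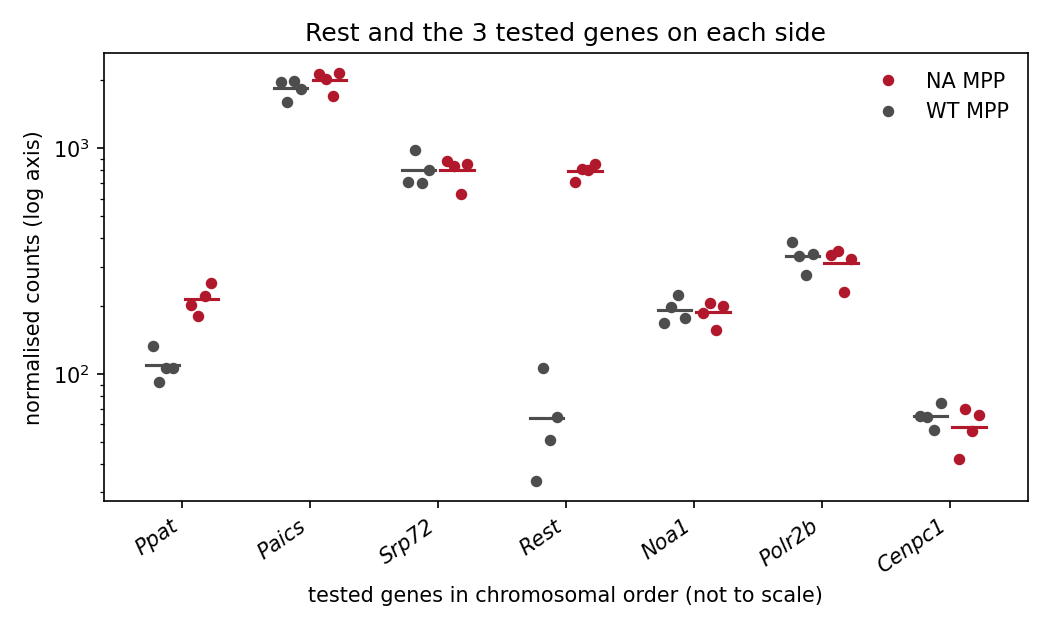
Normalised counts (log axis) of Rest and the 3 tested genes on each side, in chromosomal order but not to scale; points are libraries of WT MPP (grey) and NA MPP (red), bars are group means. Rest stands apart, Ppat is about 1.96 times as high in NA, and the other 5 neighbours overlap between groups. Cenpc1 starts 8747 kb from the start of Rest.

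The CoREST arm comprises a demethylase, 3 RCOR scaffolds and HMG20B. Kdm1a (chr4:136550540-136602723, minus strand), which encodes the lysine demethylase LSD1, had normalised counts of 845, 817, 761 and 803 in NA and 477, 607, 315 and 447 in WT libraries. Every NA library was above every WT library. The means were 806 ± 35.001 and 462 ± 119.7 (SD, 4 libraries per group), a log2 difference of 0.84 with a standard error of 0.152.

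Rcor3 (chr1:192098546-192138062, minus strand) was also higher in NA MPPs. It was at 239, 221, 250.2 and 249 normalised counts in NA and at 147, 145, 178 and 157 in WT libraries, with no overlap. The log2 difference was 0.61 with a standard error of 0.130. Rcor1 (chr12:111039351-111115901, plus strand), the founding CoREST gene, did not separate the groups. Its values were 425, 572, 561 and 589 in NA and 437, 503, 517 and 490.1 in WT libraries, and NA1 lay below all of the WT libraries.

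Rcor2 (chr19:7267325-7275225, plus strand) was low throughout. It had 19.6, 22.6, 21.2 and 15.4 normalised counts in NA and 26.6, 26.0, 36.4 and 31.1 in WT libraries. The NA values were all below the WT values, with a log2 difference of -0.59 and a standard error of 0.315. Hmg20b (chr10:81346048-81350480, minus strand) was at 74.7, 48.9, 45.2 and 41.3 in NA and at 75.5, 81.5, 67.2 and 70.1 in WT libraries. Its NA1 value lay inside the WT range and the other 3 NA values lay below it.

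The deacetylases are shared by both arms. Hdac1 (chr4:129516104-129542713, minus strand) was lower in NA MPPs, at 232, 183, 149 and 197 normalised counts against 304, 232, 252 and 272 in WT libraries. The groups touched at NA1 and WT2, and the log2 difference was -0.48 with a standard error of 0.152. Hdac2 (chr10:36974544-37001889, plus strand) was at 643, 695, 627 and 768 in NA and at 598, 436, 659 and 663 in WT libraries. These ranges overlapped, and the log2 difference was 0.23 with a standard error of 0.131.

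The SIN3 scaffolds differed less clearly. Sin3a (chr9:57072040-57128366, plus strand) was at 232, 247, 207 and 210.2 normalised counts in NA and at 207, 200.4, 70.6 and 150.04 in WT libraries. WT1 and the lowest NA library touched, WT3 lay far below the rest, and without WT3 the log2 difference was 0.28 in place of 0.62. Sin3b (chr8:72723285-72758201, plus strand) was at 971, 689, 873 and 663 in NA and at 746, 792, 823 and 737 in WT libraries. Its NA values lay on both sides of the WT range, with a log2 difference of 0.03 that changed sign when single libraries were left out (-0.07 to 0.11).

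Over all genes tested, limma called 17.9% at an adjusted p below 0.05, 10.1% higher and 7.87% lower in NA MPPs. Of the 10 members 3 were called higher (Rest, Kdm1a and Rcor3) and 1 lower (Hdac1). Groups did not overlap for 4 members (Rest, Kdm1a, Rcor3 and Rcor2), against 22.0% of all genes tested. Because the members were picked with this contrast known, nothing is read from these counts. The same holds for the member calls under other settings, which only describe how the fit depends on the settings. The median log2 difference was 0.18 over the 10 members and -0.01 over all genes tested. Without NA4 and WT4 Rest and Kdm1a were called, with log2 differences that ran from 3.47 to 4.01 and from 0.67 to 0.98 over all alternatives. Hdac1 was called under only 10 of 20 alternatives: the call was lost without NA2, NA3, NA4, WT1, WT3 or WT4, without NA4 and WT4 together, with depth class as a covariate, with no filter and with no variance trend. Rcor2 was called with no variance trend, and Hmg20b was called without NA1. Scaling by the total count turned the balance of all called genes from 56.1% to 41.3% higher in NA MPPs, while the 4 members called kept their signs under that scaling.

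Levels of different genes were compared per kb of the longest annotated transcript, which is a rough scale since the transcripts used by these cells are not known. In WT MPPs Rest was the lowest of the 10 at 9.15 ± 4.43 normalised counts per kb (SD, n = 4), and its range overlapped that of Rcor2, next at 10.6 ± 1.70. In NA MPPs it was number 4 at 113 ± 8.52, with a range that overlapped that of Rcor1 at 94.5 ± 13.3. Kdm1a was number 3 in WT at 152 ± 39.5, where it overlapped Hdac2 and Hdac1, and number 1 in NA at 266 ± 11.6, clear of Hdac2 at 210.2 ± 19.5 (SD, 4 libraries per group).

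Shares within each paralogue family show which gene supplied most of the transcript on this per kb scale. Rcor1 held 57.1% ± 3.87 of the RCOR total in NA and 62.3% ± 2.03 in WT MPPs. Rcor3 held 38.6% ± 3.63 and 30.04% ± 1.39, and Rcor2 4.27% ± 0.796 and 7.71% ± 0.744 (SD, 4 libraries per group). The NA shares of Rcor3 were all above, and those of Rcor2 all below, the WT shares. Hdac2 held 69.3% ± 4.03 of the HDAC1 and HDAC2 total in NA and 58.0% ± 3.93 in WT MPPs, with the groups clear of each other. Sin3b held 81.6% ± 3.15 and 86.3% ± 5.21 of the SIN3 total (SD, 4 libraries per group), and these ranges overlapped.

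**Figure D3:**
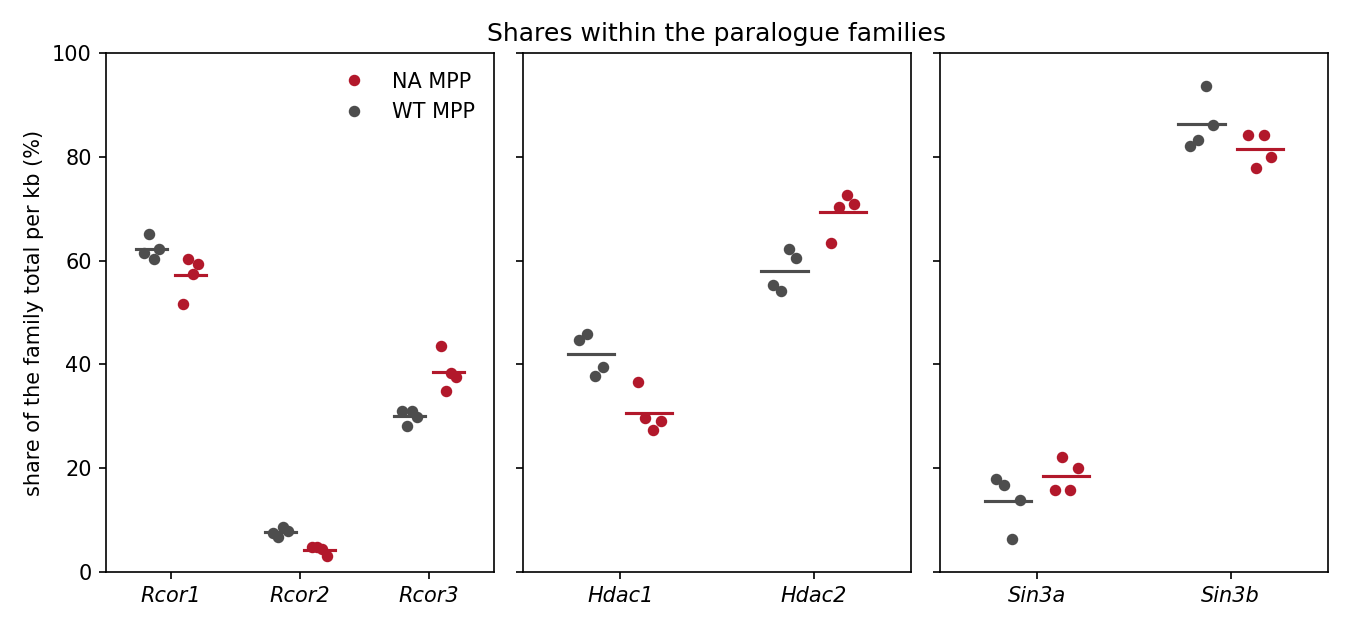
Share (%) of each paralogue in its family's summed normalised counts per kb, for RCOR, HDAC1 and HDAC2, and SIN3 genes; points are libraries of WT MPP (grey) and NA MPP (red), bars are group means. Rcor1, Hdac2 and Sin3b hold the largest share in both groups, and the shares of Rcor3 and Hdac2 are higher in all NA libraries.

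The genes that REST is known to silence were examined next, from a list of 44 neuronal and neuroendocrine genes with RE1 elements, none of which is a member. The list was chosen with earlier results of these data known. Of these, 25 were at 0 in all 8 libraries, among them Snap25, Stmn2, Syn1, Grin1 and Bdnf, which encode synaptic, cytoskeletal and signalling proteins of neurons. Another 13 had some reads but were too low for the test. Only 6 entered it, with 0 called higher by limma and 1 called lower, against 10.1% and 7.87% of all genes tested. Their median log2 fold change was -0.20. At an unadjusted limma p below 0.05 there were 0 higher and 2 lower, and the share of all genes at that threshold is not given here. The filter shaped these counts: Gria2 passed it only through WT libraries, and Scn2a, with a higher mean in NA MPPs, failed it. Nothing is therefore read from them.

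The gene called lower was Gria2. It was at 1.87, 9.40, 0 and 1.18 normalised counts in NA and at 39.1, 23.8, 19.4 and 39.1 in WT libraries. All NA values were below all WT values, and the highest NA library held 10 estimated reads. No NA library reached the filter value of 10 normalised counts. Gria2 therefore entered the test only through the WT libraries, the group in which it is high. Its p-value is given as a description, and nothing is read from the call. The means were 3.11 ± 4.26 and 30.3 ± 10.3 (SD, 4 libraries per group), or -3.40 ± 0.676 (SE) on the log2 scale (limma adjusted p = 0.00376). The call was lost without NA4 and WT4 (limma adjusted p = 0.0662).

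Unc13a, the other gene whose letters are printed above, had the highest normalised count of the 44, though per kb of transcript Bex1 was higher (165 against 14.5 in NA and 161 against 20.3 in WT MPPs). Unc13a was at 153, 165, 162 and 116 normalised counts in NA and at 187, 198, 253 and 193 in WT libraries. The groups did not overlap, but the log2 fold change of -0.48 did not pass (limma adjusted p = 0.0526). Leaving out NA3 brought it past the threshold (limma adjusted p = 0.0484), and over its 20 alternatives the limma adjusted p ran from 0.0277 to 0.283. In all, Gria2 and Lca5, a ciliary gene, were the tested genes with the 2-base gap match and Unc13a the one with the 8-base gap match. Lca5 had a mean of 21.1 in NA and 21.3 in WT MPPs (limma adjusted p = 0.822).

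The other tested targets gave no call. Bex1 was at 143 ± 15.6 and 139 ± 16.6 normalised counts in NA and WT MPPs, and Nefh, a neurofilament gene, at 81.3 ± 19.8 and 67.8 ± 9.75 (SD, 4 libraries per group, limma adjusted p = 0.896 and 0.487). Rundc3a and Chrnb2 were under 35 in every library. Scn2a, a neuronal sodium channel gene that failed the filter, had higher values in NA MPPs, at 40.1, 24.4, 7.39 and 20.1 against 5.33, 9.06, 0 and 7.10 in WT libraries. Those ranges overlapped, and Scn2a was singled out after its values were seen.

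**Figure D4:**
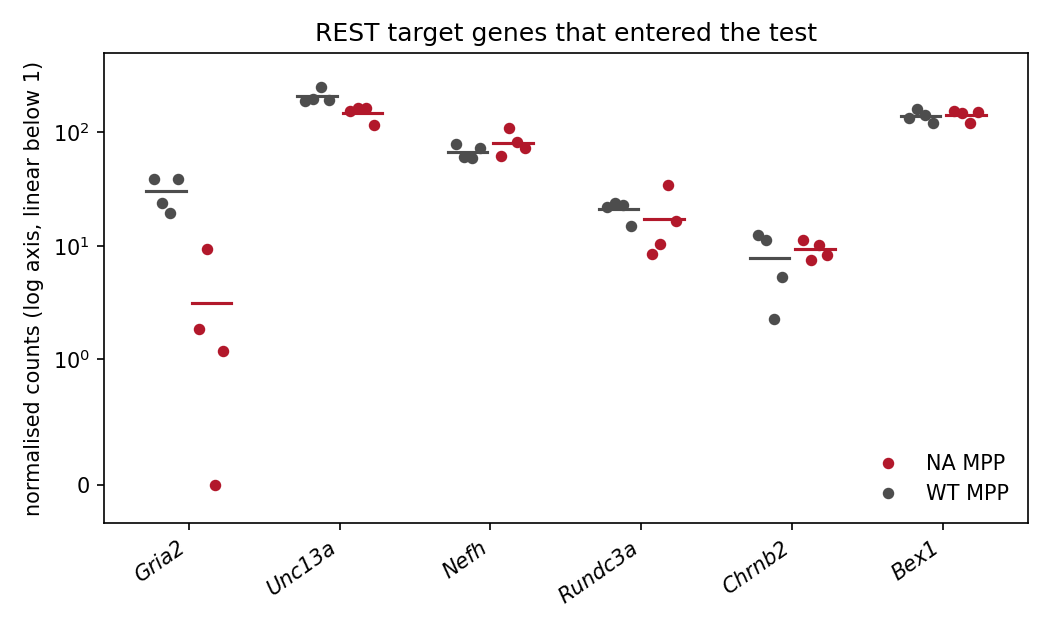
Normalised counts (log axis, linear below 1) of the 6 REST target genes that entered the test, in each library of WT MPP (grey) and NA MPP (red), with group means as bars. Gria2 lies between 0 and 9.40 in NA and between 19.4 and 39.1 in WT libraries, Unc13a is lower without overlap, and the other 4 overlap.

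Further subunits of the same complexes, regulators of the REST protein and blood repressors that use the complexes made up 52 genes, all of which entered the test. These lists were also chosen with earlier results of these data known, so their calls and p-values are not an independent test. Of these 6 were called higher and 4 lower, and the median log2 fold change was 0.02. Among the 48 autosomal ones 6 were called higher and 3 lower. Both counts lie near the background of 10.1% and 7.87% of all genes tested. For an unadjusted p below 0.05 the share of all genes tested is not given here. Nothing is therefore read from the unadjusted counts of the single lists below. Without NA4 and WT4 4 of the 52 were called, namely Sap30, Chd3, Gfi1 and Zmym3.

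The SIN3 arm held the partner with the largest change. Sap30, which encodes a small SIN3-associated subunit, rose from 17.8, 20.4, 20.5 and 32.0 normalised counts in WT to 144, 121, 176 and 142 in NA libraries. The groups were far apart, with means of 22.6 ± 6.34 and 146 ± 22.8 (SD, 4 libraries per group). the log2 change was 2.66 ± 0.244 (SE) (limma adjusted p = 8.19e-06), and it passed under all 20 alternatives. Its paralogue Sap30l was at 167 ± 28.8 in NA against 119 ± 13.2 in WT MPPs (SD, 4 libraries per group) and was not called (limma adjusted p = 0.0595).

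Of the 15 SIN3 partners 3 were called higher and 1 lower. At an unadjusted limma p below 0.05 there were 6 higher and 2 lower. Sinhcaf, a SIN3-HDAC complex subunit, rose by 0.73 (limma adjusted p = 0.0117) and Ing2, whose PHD finger reads methylated histone H3, rose by 0.64 (limma adjusted p = 0.0124). Brms1, a further SIN3 complex subunit, fell from 118 ± 14.4 to 56.8 ± 26.6 normalised counts (SD, 4 libraries per group), or -1.16 on the log2 scale (limma adjusted p = 0.0135). Brms1 narrowly missed the threshold without NA4 (limma adjusted p = 0.0501), and none of these 3 passed without NA4 and WT4. With no filter the limma adjusted p was 0.0536 for Sinhcaf and 0.052 for Brms1, and with no variance trend 0.0599 for Sinhcaf and 0.0571 for Ing2. Ogt, the O-GlcNAc transferase gene and the most abundant of the list, was at 3421 ± 433 in NA against 4239 ± 502 in WT MPPs (SD, 4 libraries per group) and was not called (limma adjusted p = 0.0545). It passed as lower under 6 of 20 alternatives, namely without NA1, without WT2, with the GC trend removed (-0.44, limma adjusted p = 0.00624), with the replicate block, with total-count scaling and with a mean of 50 or more. Ogt lies on X.

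Among 12 CoREST partners limma called 0 higher (1 at an unadjusted p below 0.05) and 2 lower (4 at that unadjusted p). Zmym3, an X-linked zinc finger subunit, fell from 395 ± 42.3 to 263 ± 30.04 normalised counts (SD, 4 libraries per group), or -0.59 on the log2 scale (limma adjusted p = 0.00518). Zfp217, a zinc finger gene, fell by 0.57 on the log2 scale (limma adjusted p = 0.0378), but was called under only 9 of 20 alternatives. The call was lost without NA1, NA2, NA4, WT1, WT3 or WT4, without NA4 and WT4 together, with the GC trend removed, with depth class as a covariate, with no filter and with no variance trend (limma adjusted p up to 0.148 over its alternatives). Ctbp1, a corepressor that binds CoREST partners and the most abundant of the list, was at 891 ± 40.9 and 783 ± 40.0 (SD, 4 libraries per group, limma adjusted p = 0.138). Ctbp1 passed as higher with the GC trend removed (0.32 on the log2 scale, limma adjusted p = 0.00899).

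The NuRD complex also holds HDAC1 and HDAC2, and its 9 subunits gave 1 call in each direction. At an unadjusted limma p below 0.05 there were 2 higher and 1 lower. Chd3, a remodelling ATPase gene, fell from 568 ± 39.7 to 323 ± 54.5 normalised counts (SD, 4 libraries per group), or -0.82 on the log2 scale (limma adjusted p = 0.000491). Chd4, the related ATPase gene, was at 617 ± 96.0 in NA against 579 ± 76.2 in WT MPPs (SD, 4 libraries per group, limma adjusted p = 0.659). Mbd2, which encodes a reader of methylated DNA, rose by 0.48 on the log2 scale (limma adjusted p = 0.00592). Mbd3, the most abundant of the list, was not called (limma adjusted p = 0.199). Gatad2b, a low NuRD subunit gene named here after its values were seen, had the widest difference of the list that was not called. It was at 6.53, 47.0, 11.1 and 27.2 normalised counts in NA and at 5.33, 11.3, 0 and 4.44 in WT libraries (limma adjusted p = 0.0878).

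None of the 8 genes for regulators of the REST protein was called by limma, while at an unadjusted p below 0.05 there were 1 higher and 2 lower. They include Btrc, which encodes the ubiquitin ligase subunit that marks REST for degradation, at 122 ± 15.3 in NA against 162 ± 28.1 in WT MPPs (SD, 4 libraries per group, limma adjusted p = 0.122). The deubiquitinase gene Usp7 was at 691 ± 34.7 and 746 ± 41.7 (SD, 4 libraries per group, limma adjusted p = 0.408). Ctdsp2, a small phosphatase gene and the most abundant of the list, was at 1779 ± 87.5 and 1820.3 ± 79.9 (SD, 4 libraries per group, limma adjusted p = 0.793).

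Of 8 blood repressors that work through these complexes 2 were called higher and 0 lower. At an unadjusted limma p below 0.05 there were 5 higher and 1 lower, with no share of all genes at that threshold to set beside them. Gfi1, which restrains stem cell cycling and uses LSD1-CoREST, rose from 302, 360.1, 332 and 330.3 normalised counts in WT to 494, 497, 497 and 533 in NA libraries. The groups did not overlap, and the log2 change was 0.61 ± 0.0999 (SE) (limma adjusted p = 0.00102). Its paralogue Gfi1b was at 148 ± 34.1 in NA against 208 ± 48.5 in WT MPPs (SD, 4 libraries per group, limma adjusted p = 0.0979). Zeb2, a zinc finger homeobox repressor gene, rose by 0.80 on the log2 scale (limma adjusted p = 0.0104), and Ikzf1, with the highest normalised count of the list but below Tal1 per kb, was not called (limma adjusted p = 0.149). Zeb2 and Mbd2 did not pass without NA4 and WT4.

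**Figure D5:**
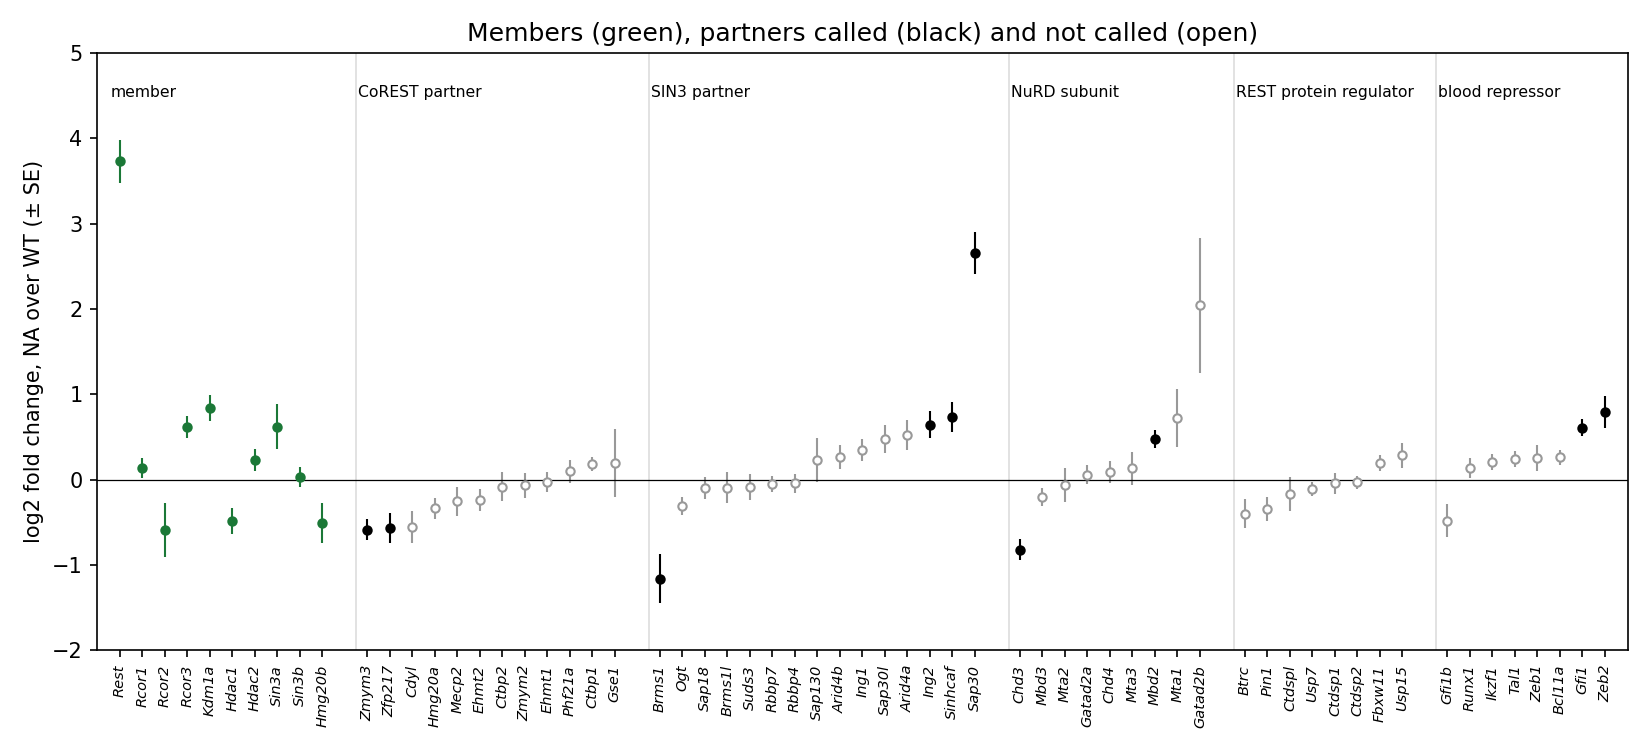
Log2 fold change of NA over WT MPPs on the log2(normalised count + 1) scale, with its standard error. The 10 members are in green, with their calls not shown. The 52 genes of the partner lists are in black where called by limma and open grey where not called. Rest at 3.73 and Sap30 at 2.66 lie above the remaining genes, and Brms1 at -1.16 is the lowest.

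The genes whose pattern over the 8 libraries was most like that of Rest were Rbm3, Trim8, Hdac3, Gfi1 and Ifngr1, with Pearson r from 0.995 to 0.999 on the log2 scale among the same 9000 genes. This measure follows mainly the gap between the groups, and it is given as a description. Trim8, a ubiquitin ligase gene, was at 107, 114, 111 and 99.2 normalised counts in NA and at 7.99, 20.4, 10.2 and 13.3 in WT libraries. Hdac3, the deacetylase of the NCoR and SMRT complexes, was at 702, 643, 660.2 and 697 in NA and at 275, 370.3, 299 and 312 in WT libraries. In all 5 genes, as in Rest, WT2 was the highest and WT1 the lowest of the WT libraries. The choice by correlation with Rest favours such a shared order, so nothing further is read from it.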

How the data were processed

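Gene values of 8 bulk RNA-seq libraries, 4 NA MPP and 4 WT MPP, were taken from 1 deposited table. The authors processed reads with bcl2fastq, RSEM and DESeq2 on build mm10, per the labels; versions, annotation and strand use are not given in the sources used here. The deposited values are a normalised signal, namely expected counts that the authors had divided by 1 size factor per library, although the table is named as raw counts: from 98.4% to 99.1% of values between 0.5 and 30 were within 0.1 of a whole multiple of 1 step per library. That step gave the estimated reads, whose intervals would cover counting error only. Symbols, transcript lengths and coordinates came from GENCODE M21 (GRCm38), which named 32916 of 37980 rows. Groups came from sample titles.

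The test was a limma fit (version 3.58.1, R 4.3.3) to log2(normalised count + 1), with a mean-variance trend and no covariate. A gene entered where 4 or more libraries reached 10 normalised counts, and p-values were Benjamini-Hochberg adjusted over all 11451 tested genes, with a threshold of 0.05. The pseudocount understates changes of low genes. The fit was first tested on simulated data. A further erythroid marker is not reported here. Members and lists were chosen with earlier results of these data known. Named genes were all members, up to 4 called genes in each direction and the gene with the highest normalised count of each other list, and the 5 genes most like Rest. Neighbours of Rest, further genes named and the RE1 letters were chosen after values were seen.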

Additional observations from a re-analysis of the deposited data

Results flagged for a closer look

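Within a group of 4, the most extreme library was marked when Dixon's gap ratio passed its 95% limit. This occurred 7 times in 56 groups, and about 2.8 such cases arise by chance. NA1 gave 3 of them, always as the lowest NA library: Rcor1 was at 424.7 normalised counts against 561 to 589, Zfp217 at 94.3 against 147 to 150.5, and Ing2 at 375 against 511 to 526. Gfi1 was at 533 in NA4 against 494 to 497, Zeb2 at 77.0 in WT2 against 97.7 to 101, and Unc13a at 253 in WT3 against 187 to 198. NA4 held 3887850 estimated reads, whereas NA1 to NA3 held 4909410 to 4916980. The cause of these values was not tested.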

How the results depend on the processing

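Of 20 alternatives to the reported test, leaving out NA4 and WT4 together moved the counts most. Across the fits that left out libraries the genes called ran from 524 (NA4 and WT4 out) to 2176 (without NA3), the REST targets called from 0 to 2, the partners from 4 to 14 (across these fits alone) and the members from 2 to 5. All 4 lower ends were reached without NA4 and WT4. Fewer samples enter that fit, and the part of the sample number in the lower counts was not tested. Without NA4 alone 1125 genes were called and without WT4 alone 1279, against 2053 as reported. Total-count scaling gave 2 REST targets, Gria2 and Unc13a. The GC alternative was chosen after seeing the data; it reversed Mbd3 to 0.0318 and Ctdsp2 to 0.0956 on the log2 scale, neither called, moved Rcor3 to 0.49, and raised the partners called from 10 to 15, the highest count of any alternative, with Ctbp1 and Ogt among them. With no filter 7 partners were called, and with no variance trend 8. With the replicate block 2004 genes were called and the partners were 12; the same-numbered libraries did not deviate together in all pairs (correlations from -0.0009 to 0.171), so the numbers were not taken as pairing the samples. Depth limits the 38 REST targets that were not tested: low counts there do not show absence of the transcript.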
